A study of Oryza sativa Japonica Group and Oryza sativa with 4 samples.

Results

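The 8 circadian clock genes described here are rice genes of the central oscillator, taken by their RAP-DB identifiers from the 37849 genes of the deposited gene table. They are LHY (Os08g0157600), PRR73 (Os03g0284100), PRR37 (Os07g0695100), PRR95 (Os09g0532400), TOC1, also called PRR1 (Os02g0618200), GI or GIGANTEA (Os01g0182600), ELF3 (Os06g0142600) and LUX (Os01g0971800). All 8 had a mean level of at least 1 FPKM, a level scaled to transcript length and to the size of the library, as did 18575 of all genes. Their identity, and not their level or response, was the reason for choosing them, although earlier results of these data were then known.

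Leaves of 21-day-old rice seedlings were profiled by RNA sequencing in 4 groups. The groups were a near-isogenic line, abbreviated NIL, after 48 h of infestation by green rice leafhopper (GRH), the NIL without insects (control), Ilpum infested in the same way, and Ilpum without insects. The NIL carries the GRH resistance gene Grh1 from a cross of the indica parent Shingwang with Ilpum, a GRH-susceptible japonica cultivar with the wild-type genotype. The infested seedlings stood in test tubes with second instar nymphs at room temperature. Resistance is represented by a single line, so any other donor segment that the NIL carries goes with Grh1.

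Each group had 1 library in the files. No difference below therefore has a replicate check, no test between groups was run, and every interval covers counting error only. Each read was taken as independent in these intervals. The libraries held 1170099 reads for NIL GRH, 5037081 for NIL control, 894661 for Ilpum GRH and 2119765 for Ilpum control. Both infested libraries were thus shallower than their controls. Reads of the 6 leaf marker genes, which encode the Rubisco small subunit, Rubisco activase and chlorophyll a/b-binding proteins, were present in all 4 libraries, with a summed level of 8164 FPKM in NIL GRH against 23725 in NIL control and of 16144 in Ilpum GRH against 32540 in Ilpum control. The leaf label was thereby met, and the summed marker level was lower in each infested library. By gene, the Rubisco small subunit gene RBCS3 went the other way in Ilpum, at 1672 FPKM in Ilpum GRH against 1255 in Ilpum control. Of 3 root markers, RCc3 and Lsi2 were listed at 0 in every library, while Lsi1, a silicon channel, was at 133 FPKM in NIL GRH against 4.50 in NIL control and at 283 FPKM in Ilpum GRH against 5.10 in Ilpum control. The meristem marker OSH1 was listed at 0 throughout. The part that these marker levels have in the clock gene results was not tested. In bulk leaf RNA, fewer cells of a type and less RNA per cell cannot be told apart.

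The plant clock is a set of transcription factors that repress one another in turn through the day. In Arabidopsis, the MYB factors CCA1 and LHY peak around dawn and repress evening genes. The pseudo-response regulators follow one another through the day and repress CCA1 and LHY. TOC1, a member of the same family, and the evening complex of ELF3, ELF4 and LUX act around dusk and into the night, and GI is a large evening protein that stabilizes the F-box photoreceptors ZTL and FKF1. Rice holds counterparts of these genes, and in rice the clock passes day length on to heading date through Hd1 and the florigen Hd3a. Transcripts of this kind cycle over the day, and the hour at which the leaves were collected is not given in the sources used here. Each library is a single unknown hour, and a difference in hour between libraries cannot be told apart from a difference between groups.

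The genes lie on 7 chromosomes of the IRGSP-1.0 assembly. LHY spans chr8:3360865-3373395 on the plus strand with 3 annotated transcripts. PRR73 spans chr3:9759666-9768689 on the minus strand with 4 transcripts, PRR37 spans chr7:29616705-29629215 on the plus strand with 2, and PRR95 spans chr9:20885173-20889792 on the minus strand with 2. TOC1 lies at chr2:24569489-24572391 on the plus strand with 1 transcript of 6 exons. GI at chr1:4329362-4338486 has 2 transcripts, ELF3 at chr6:2234581-2239058 has 1, and LUX at chr1:42874273-42875515 has 1 transcript of a single exon, all 3 genes being on the minus strand.

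Per transcript length, GI was the most abundant clock gene in every library, and the least abundant was TOC1 in both NIL libraries and LUX in both Ilpum libraries. GI stood above 98.9% of the 18575 genes in NIL GRH and above 99.1% in NIL control, with 98.6% in Ilpum GRH and 99.1% in Ilpum control. In NIL GRH the order after GI was LHY, PRR73, PRR95 and ELF3, each apart, then LUX and PRR37, which overlapped, and TOC1. In NIL control LHY and PRR95 overlapped, PRR73 and ELF3 followed, PRR37 and LUX overlapped, and TOC1 came last. In Ilpum GRH the order after GI was LHY, then PRR95 and PRR73, then ELF3, PRR37 and TOC1, then LUX. PRR95 and PRR73 overlapped there in their 95% counting intervals, as did ELF3, PRR37 and TOC1. In Ilpum control the order after GI was PRR95, PRR73 and LHY, each apart from its neighbour, followed by ELF3, PRR37 and TOC1, whose intervals overlapped from one to the next, and LUX.

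**Figure D1:**
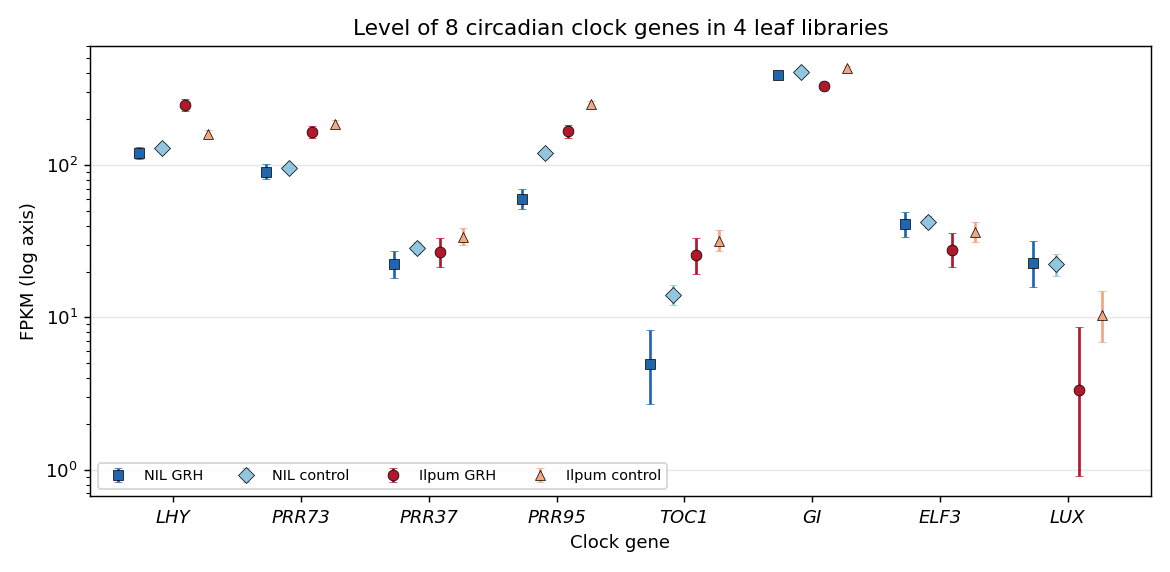
Level of the 8 clock genes in FPKM on a log axis, with 1 point per library (NIL GRH, NIL control, Ilpum GRH, Ilpum control) and bars for the 95% Poisson interval of the reads. GI lies between 331 and 430 FPKM in all 4 libraries, while TOC1 spans 4.92 to 31.8 FPKM and LUX 3.36 to 22.7 FPKM.

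In each comparison a gene counted as called when its value of log2(FPKM + 1) differed by at least 1, that is 2-fold, which understates the change of genes at low levels. Beside it stands the log2 ratio of CPM, the reads scaled to the library total, with its exact 95% Clopper-Pearson interval. In the NIL, GRH against control, 0 of the 8 clock genes were called higher and 1 was called lower (TOC1), while 14.7% of all genes were called higher and 20.9% lower. In Ilpum, 0 were called higher and 1 lower (LUX), while 20.4% of all genes were called higher and 28.6% lower. Between the infested lines, NIL against Ilpum, 1 was higher (LUX) and 3 were lower (LHY, PRR95 and TOC1), beside 25.0% and 23.7% of all genes. Between the uninfested lines, 1 was higher (LUX) and 2 were lower (PRR95 and TOC1), beside 14.1% and 14.0%. The counts under GRH do not exceed the shares of all genes, and those of lower genes between the lines exceed them by about 1 gene, so the number of calls by itself is no result about the clock genes.

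Sparse genes pass 2-fold through counting error alone, so the same shares were taken over the 4769 genes averaging 100 reads or more over the libraries, which include every clock gene but TOC1 and LUX. Among these, 8.79% were called higher and 9.29% lower in the NIL under GRH, and 9.69% and 18.7% in Ilpum. Between the infested lines 19.7% were higher and 9.90% lower, and between the uninfested lines 7.99% and 6.12%. The median log2 difference of the 8 clock genes was -0.10 under GRH in the NIL and -0.35 in Ilpum. It was -0.55 between the infested lines and -0.28 between the uninfested lines. The medians over all 18575 genes were -0.06, -0.10, 0 and -0.02 in the same 4 comparisons, so the median of the clock genes was the lower one in each.

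LHY, the dawn MYB repressor, had 120 FPKM in NIL GRH against 129 in NIL control, and 248 FPKM in Ilpum GRH against 161 in Ilpum control. Its reads were 447 in NIL GRH, 2123 in NIL control, 501 in Ilpum GRH and 1080 in Ilpum control. Ilpum GRH was the highest library in FPKM, and the other 3 lay between 120 and 161 FPKM, with Ilpum control above both NIL libraries. The log2 FPKM difference under GRH was -0.11 in the NIL and 0.62 in Ilpum, neither called. By CPM the NIL difference was -0.14 (-0.29 to 0.01) and the Ilpum difference was 0.14 (-0.02 to 0.29), and both intervals include 0. Between the lines LHY was lower in the NIL by every measure run. The log2 FPKM difference was -1.04 with GRH and -0.31 without insects, and only the first was called. By CPM it was -0.55 (-0.74 to -0.36) with GRH and -0.27 (-0.38 to -0.17) without, so the infested call was lost by CPM.

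The gap between FPKM and reads of LHY lies in its short transcripts. Os08t0157600-01 is the full-length transcript of 3236 bases and 12 exons, while Os08t0157600-02 (1275 bases, 2 exons) and Os08t0157600-03 (646 bases, 1 exon) cover only the 3' end of the gene. The full-length transcript was at 109 FPKM in NIL GRH against 123 in NIL control, and at 131 FPKM in Ilpum GRH against 147 in Ilpum control. For this transcript alone, each GRH library was slightly below its control, and the Ilpum difference was -0.17 on the log2 scale.

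The 646-base transcript was at 4.44 FPKM in NIL GRH against 2.45 in NIL control, and at 81.3 FPKM in Ilpum GRH against 8.78 in Ilpum control. It rested on 4 reads in NIL GRH against 9 in NIL control, and on 51 reads in Ilpum GRH against 13 in Ilpum control. These 51 reads gave 32.7% of the summed LHY FPKM of Ilpum GRH, against 5.46% in Ilpum control, because FPKM divides by a short length. The 1275-base transcript had 10 reads in NIL GRH against 26 in NIL control, and 44 reads in Ilpum GRH against 13 in Ilpum control. With library size taken into account, it was at 6.04 FPKM in NIL GRH against 3.76 in NIL control. In Ilpum it was at 35.9 FPKM in Ilpum GRH against 4.57 in Ilpum control. The higher LHY sum of infested Ilpum was thus carried by the 2 short 3' transcripts, which share their sequence with the last exons of the full-length one, so the split of reads between them is StringTie's estimate.

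**Figure D2:**
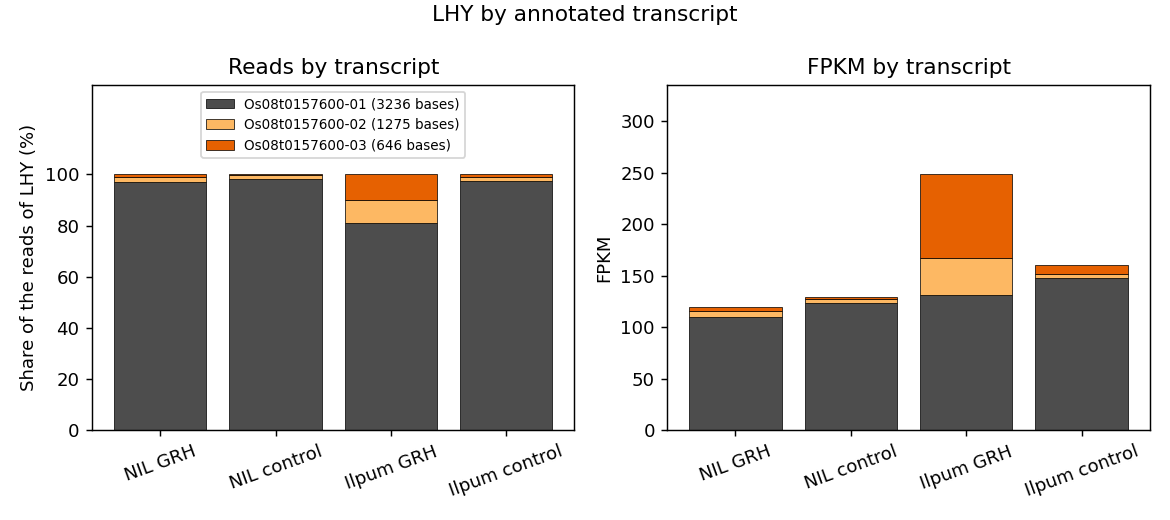
Share of the LHY reads (left, percent) and FPKM (right) given to each annotated LHY transcript in the 4 libraries, stacked. The full-length transcript holds 109 to 147 FPKM in all 4, and the 646-base transcript adds 81.3 FPKM in Ilpum GRH and at most 8.78 FPKM elsewhere.

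PRR73, a pseudo-response regulator of the day, had 90.6 FPKM in NIL GRH against 95.9 in NIL control, and 165 FPKM in Ilpum GRH against 187 in Ilpum control. Both NIL libraries were at about the same level, and both lay below both Ilpum libraries. Under GRH the log2 difference was -0.08 in the NIL and -0.18 in Ilpum, with read intervals that include 0. Between the lines it was -0.86 with GRH and -0.95 without insects, just under the 2-fold mark. By CPM these differences were -1.06 (-1.28 to -0.85) and -1.03 (-1.15 to -0.92). PRR73 is thereby a gene whose line difference sits at the threshold, on one side of it by FPKM and on the other by CPM. With read counts scaled by TMM, a correction of the library totals for composition, the difference was short of the mark. It was then -0.99 with GRH and -0.88 without insects. On the most abundant PRR73 transcript alone the difference was past the mark, at -1.33 with GRH and -1.08 without insects.

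The longest PRR73 transcript, Os03t0284100-01, held 58.9% of the reads in NIL GRH and 59.4% in NIL control, with 73.8% in Ilpum GRH and 62.3% in Ilpum control. Os03t0284100-04 held 25.8% in NIL GRH and 25.3% in NIL control, with 10.7% in Ilpum GRH and 26% in Ilpum control. The shares of Ilpum GRH stood apart from the other 3 libraries for both. These transcripts have 5 identical exons, so the split of reads between them is StringTie's estimate.

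PRR37, a pseudo-response regulator that also delays heading under long days in rice, had 22.4 FPKM in NIL GRH against 28.4 in NIL control, and 26.7 FPKM in Ilpum GRH against 33.9 in Ilpum control. It varied least among the pseudo-response regulators. Its 4 log2 differences lay between -0.34 and -0.25, all lower in the infested or NIL library and none called. Its read interval excluded 0 for GRH in the NIL (-0.67 to -0.003) and between the uninfested lines (-0.47 to -0.02). With read counts scaled by TMM the PRR37 differences were -0.50 for GRH in the NIL and -0.10 between the uninfested lines. These limits therefore depend on the scaling.

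PRR95, the regulator annotated in the files as circadian-associated with control of flowering time, had 59.7 FPKM in NIL GRH against 120 in NIL control, and 166 FPKM in Ilpum GRH against 251 in Ilpum control. Both GRH libraries lay below their controls, and the NIL libraries lay below the Ilpum libraries. The log2 difference under GRH was -0.996 in the NIL, just short of the call, and -0.59 in Ilpum, and the read ratios were -0.999 (-1.23 to -0.77) in the NIL and -0.55 (-0.72 to -0.39) in Ilpum. Between the lines it was called lower in the NIL in both states, at -1.46 with GRH and -1.06 without insects. The uninfested call was lost with read counts scaled by TMM, which corrects the library totals for composition (-0.92), and on the most abundant transcript alone (-0.98). The read ratios were -1.51 (-1.78 to -1.25) and -1.07 (-1.17 to -0.96), and PRR95 was the only clock gene whose read interval lay below 0 in all 4 comparisons.

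Nearly all PRR95 reads belonged to Os09t0532400-01. Os09t0532400-02, which differs only at the outer ends with 6 of 8 exons identical, had 0 reads in NIL GRH against 39 in NIL control, and 0 reads in Ilpum GRH against 103 in Ilpum control. It was listed with reads in the controls only, and it made up 2.59% of the PRR95 reads in NIL control and 7.76% in Ilpum control. As the transcripts share most exons, this split of reads is StringTie's estimate.

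TOC1, the dusk repressor of the pseudo-response regulator family, had 4.92 FPKM in NIL GRH against 14.0 in NIL control, and 25.7 FPKM in Ilpum GRH against 31.8 in Ilpum control. The reads were 14 in NIL GRH, 167 in NIL control, 56 in Ilpum GRH and 159 in Ilpum control, so the lowest level rests on few reads. NIL GRH lay below NIL control and both lay below Ilpum, while the 2 Ilpum libraries overlapped in their counting intervals. The log2 difference under GRH was -1.35 in the NIL, with a read ratio of -1.47 (-2.37 to -0.68), and -0.30 in Ilpum, with a read ratio of -0.26 (-0.73 to 0.19). Only the NIL response was called. Between the lines TOC1 was called lower in the NIL in both states, at -2.17 with GRH (reads, -2.39, -3.35 to -1.52) and -1.13 without insects (reads, -1.18, -1.50 to -0.86). At 4.51-fold between the infested lines, this was the one clock gene lower by more than 4-fold.

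GI, the abundant evening gene, had 389 FPKM in NIL GRH against 405 in NIL control, and 331 FPKM in Ilpum GRH against 430 in Ilpum control. It had the most reads of the 8 genes, 1328 to 8886 per library, and its counting error was the smallest. The log2 difference under GRH was -0.06 in the NIL, with a read ratio of -0.05 (-0.13 to 0.02), and -0.37 in Ilpum, with a read ratio of -0.34 (-0.43 to -0.25). Between the lines GI was at 0.23 with GRH (reads, 0.19, 0.09 to 0.30) and at -0.09 without insects (reads, -0.09, -0.15 to -0.04). These differences were small and none was called, although 3 of the 4 read intervals excluded 0.

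The 2 GI transcripts share 13 of 16 exons, so the split of reads between them is StringTie's estimate. Os01t0182600-03 was given 2.77% of the GI reads in NIL GRH against 15.5% in NIL control, and 7.15% in Ilpum GRH against 23.7% in Ilpum control. The share of this transcript was lower in both GRH libraries. Os01t0182600-01 alone was at 378 FPKM in NIL GRH against 343 in NIL control, and at 308 FPKM in Ilpum GRH against 329 in Ilpum control. On this transcript the NIL response had the opposite sign to that of the gene sum, at 0.14 on the log2 scale.

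ELF3, the scaffold of the evening complex, had 41.1 FPKM in NIL GRH against 42.4 in NIL control, and 27.9 FPKM in Ilpum GRH against 36.4 in Ilpum control. Both NIL libraries lay above both Ilpum libraries. Its differences under GRH were -0.05 in the NIL and -0.37 in Ilpum, both with read intervals that include 0. Between the lines it was at 0.54 with GRH (reads, 0.53, 0.07 to 1.0) and at 0.22 without insects (reads, 0.21, -0.03 to 0.46), and none of its differences was called.

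LUX, the MYB-like DNA-binding subunit of the evening complex, had 22.7 FPKM in NIL GRH against 22.3 in NIL control, and 3.36 FPKM in Ilpum GRH against 10.4 in Ilpum control. It rested on 35 reads in NIL GRH against 145 in NIL control, and on 4 reads in Ilpum GRH against 29 in Ilpum control. The NIL libraries were level with each other and above both Ilpum libraries. Under GRH LUX was at 0.03 in the NIL (reads, 0.06, -0.52 to 0.60) and was called lower in Ilpum, at -1.38 (reads, -1.61, -3.58 to -0.10). Between the lines it was called higher in the NIL in both states, at 2.45 with GRH (reads, 2.74, 1.26 to 4.70) and 1.04 without insects (reads, 1.07, 0.49 to 1.70). The 2 intervals that use Ilpum GRH are the widest, and its 4 reads were the lowest count of any clock gene in any library.

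**Figure D3:**
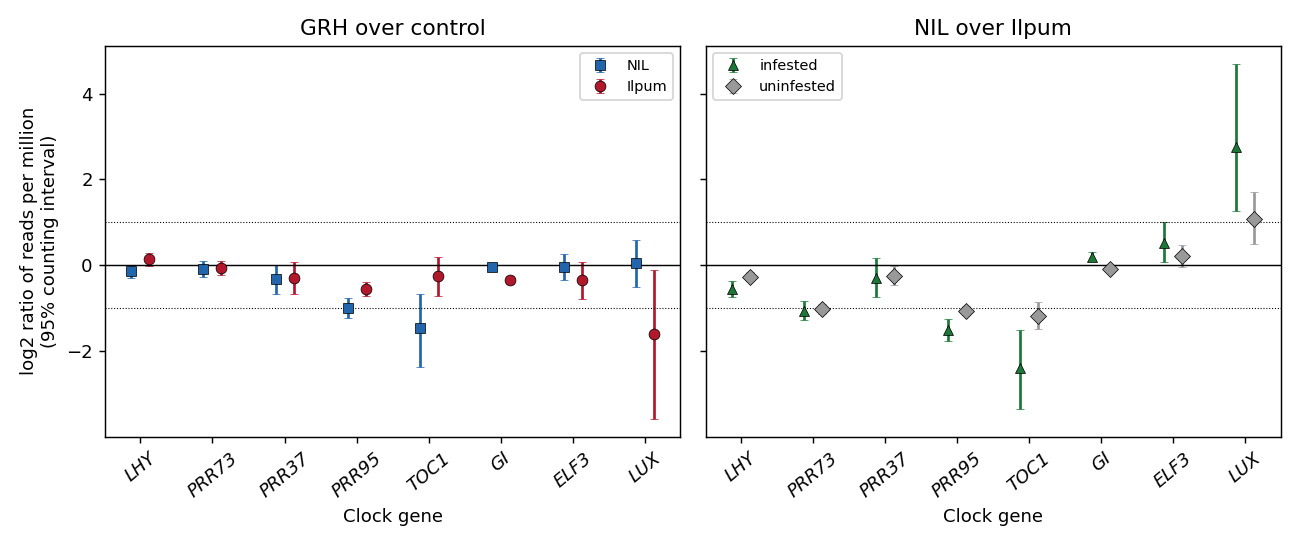
log2 ratio of CPM for the 8 clock genes, GRH over control in each line (left) and NIL over Ilpum with and without GRH (right), with 95% counting intervals and dotted lines at 2-fold. TOC1 reaches -2.39 and LUX 2.74 between the infested lines, while LHY, PRR37, GI and ELF3 stay within the dotted lines in all 4 comparisons.

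The difference between the 2 GRH responses, NIL minus Ilpum, was computed on log2 CPM with its counting interval. It was negative for TOC1 at -1.21 (-2.11 to -0.31), PRR95 at -0.45 (-0.73 to -0.17) and LHY at -0.28 (-0.49 to -0.07). It was positive for LUX at 1.67 (0.07 to 3.27) and GI at 0.29 (0.17 to 0.40). The dawn gene LHY, PRR95 and TOC1 were thus lower, and LUX and GI higher, in the NIL relative to the Ilpum response, beyond counting error only. For LHY this rests on its short 3' transcripts, since the full-length transcript alone was at -0.17 on the log2(FPKM + 1) scale under GRH in both lines. For PRR73, PRR37 and ELF3 the interval included 0, with ELF3 at 0.31 (-0.20 to 0.82), so a difference of this size was not detectable at this depth. The intervals of LUX, LHY and TOC1 could include 0 if both mates of a pair were counted, and those of LUX and LHY end closest to it.

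The 2 comparisons between the lines share no library. Of the 8 clock genes, 7 lay on the same side of 0 in both, with GI the exception, and 59.0% of 16841 genes with a difference in both did so. The share was 66.7% among 4763 such genes averaging 100 reads or more. LUX was called higher in both and PRR95 and TOC1 were called lower in both, while 6.53% of the 16841 genes were higher in both and 5.70% were lower in both. The values of TOC1, PRR95, PRR73, PRR37 and LHY were lower in the NIL, and those of ELF3 and LUX were higher, whether or not insects were present.

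**Figure D4:**
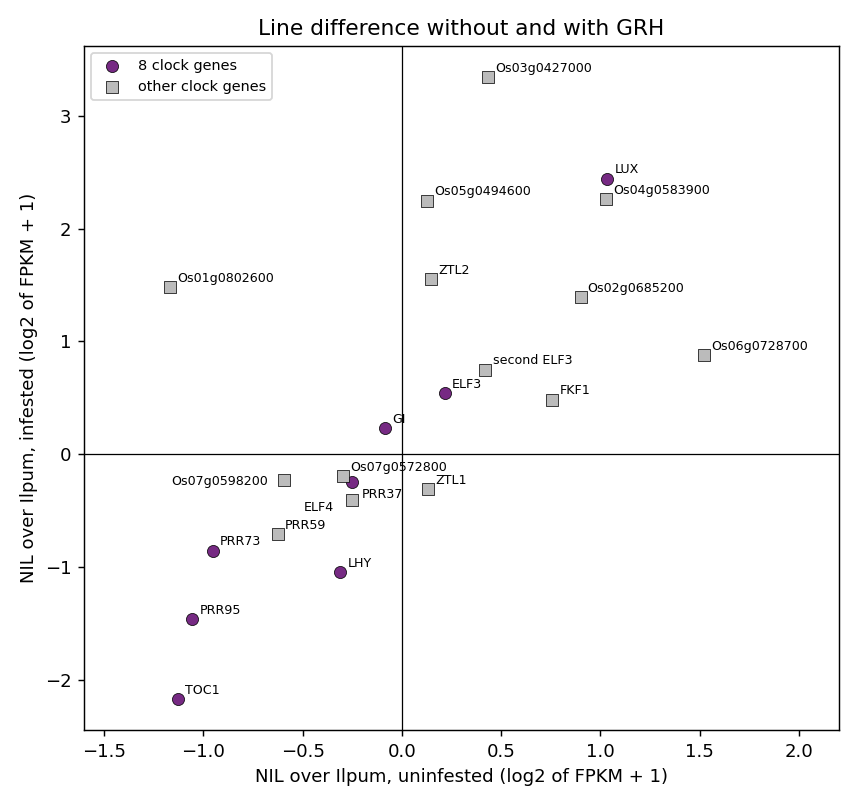
Difference of NIL minus Ilpum in log2(FPKM + 1) without GRH (horizontal) and with GRH (vertical) for the 8 clock genes (circles) and 14 other clock genes (squares). TOC1, PRR95, PRR73, LHY and PRR37 lie at the lower left and LUX and ELF3 at the upper right.

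Ratios of 2 clock genes within a library do not depend on how libraries are scaled to one another. LHY over TOC1, a dawn to dusk ratio, was 24.4 in NIL GRH against 9.22 in NIL control, and 9.67 in Ilpum GRH against 5.05 in Ilpum control, in FPKM. By reads it was 31.9 (18.8 to 58.9) in NIL GRH against 12.7 (10.9 to 15.0) in NIL control, and 8.95 (6.78 to 12.0) in Ilpum GRH against 6.79 (5.75 to 8.07) in Ilpum control. The intervals were apart between the NIL libraries and overlapped between the Ilpum libraries. PRR73 over TOC1 gave the same picture, with 18.4 in NIL GRH against 6.82 in NIL control and 6.42 in Ilpum GRH against 5.86 in Ilpum control.

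LHY over PRR95 was 2.01 in NIL GRH against 1.08 in NIL control, and 1.49 in Ilpum GRH against 0.641 in Ilpum control. By reads it was 2.55 (2.14 to 3.06) in NIL GRH against 1.41 (1.32 to 1.51) in NIL control, and 1.31 (1.15 to 1.50) in Ilpum GRH against 0.814 (0.750 to 0.883) in Ilpum control. This ratio was higher in each GRH library than in its control, without overlap of the counting intervals. LHY over GI was 0.308 in NIL GRH against 0.320 in NIL control, and 0.749 in Ilpum GRH against 0.374 in Ilpum control, and by reads the Ilpum gap narrowed to 0.377 (0.340 to 0.418) in Ilpum GRH against 0.271 (0.253 to 0.290) in Ilpum control. All LHY ratios include its short 3' transcripts. The full-length transcript held 81.0% of the LHY reads in Ilpum GRH against 97.6% in Ilpum control. GI over LUX was 17.1 in NIL GRH against 18.2 in NIL control, and 98.7 in Ilpum GRH against 41.5 in Ilpum control, so that 2 evening genes stood in very different proportion in the 2 lines. By reads it was 56.8 (40.7 to 81.7) in NIL GRH against 61.3 (52.0 to 72.7) in NIL control. In Ilpum it was 332 (129 to 1220) in Ilpum GRH, on 4 LUX reads, against 137 (95.6 to 206) in Ilpum control. The intervals were apart between the lines and overlapped within each line.

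Coverage along the exons was uneven for TOC1. Exon 6, the last exon with 1123 of the 2260 bases, had a mean coverage of 1.22 in NIL GRH against 9.93 in NIL control, and 4.44 in Ilpum GRH against 11.3 in Ilpum control. These depths are not scaled to library size. The libraries held 1170099 reads in NIL GRH against 5037081 in NIL control, and 894661 in Ilpum GRH against 2119765 in Ilpum control. Each infested library was thus shallower than its control. The part of library size in the gaps in depth, and in the exons without coverage, was not tested. Exons 1 to 5 had no coverage in NIL GRH, and exons 3 and 4 had none in Ilpum GRH. In both controls every exon was covered. With the exons split at the middle of their length, coverage of the 3' part over the 5' part was 2.02 in NIL control, where NIL GRH had no 5' coverage, and 8.04 in Ilpum GRH against 3.86 in Ilpum control, whereas the median over 4186 to 4293 genes lay between 0.975 and 1.06 in the 4 libraries. Coverage times length of the last exon made up 100% of the TOC1 total in NIL GRH against 66.4% in NIL control, and 88.9% in Ilpum GRH against 79.2% in Ilpum control, for 49.7% of the length. The last exon thus held most of the TOC1 coverage in all 4 libraries, with the higher share in each infested one, and the part of this in the result was not tested.

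The same ratio for LHY was 1.40 in NIL GRH against 1.43 in NIL control, and 2.06 in Ilpum GRH against 1.58 in Ilpum control. Over the last of 10 equal bins of the exonic length, the LHY coverage was 1.40 times its own mean in Ilpum GRH, against 0.999 in Ilpum control, 0.926 in NIL GRH and 0.987 in NIL control. This is where the short LHY transcripts lie. For PRR95 the ratio was 0.968 in NIL GRH against 1.34 in NIL control, and 1.41 in Ilpum GRH against 1.82 in Ilpum control, and for ELF3 it was 2.41 in NIL GRH and between 1.20 and 1.43 in the other libraries. PRR73 was covered more toward its 5' end in all 4 libraries, with ratios of 0.400 to 0.581.

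**Figure D5:**
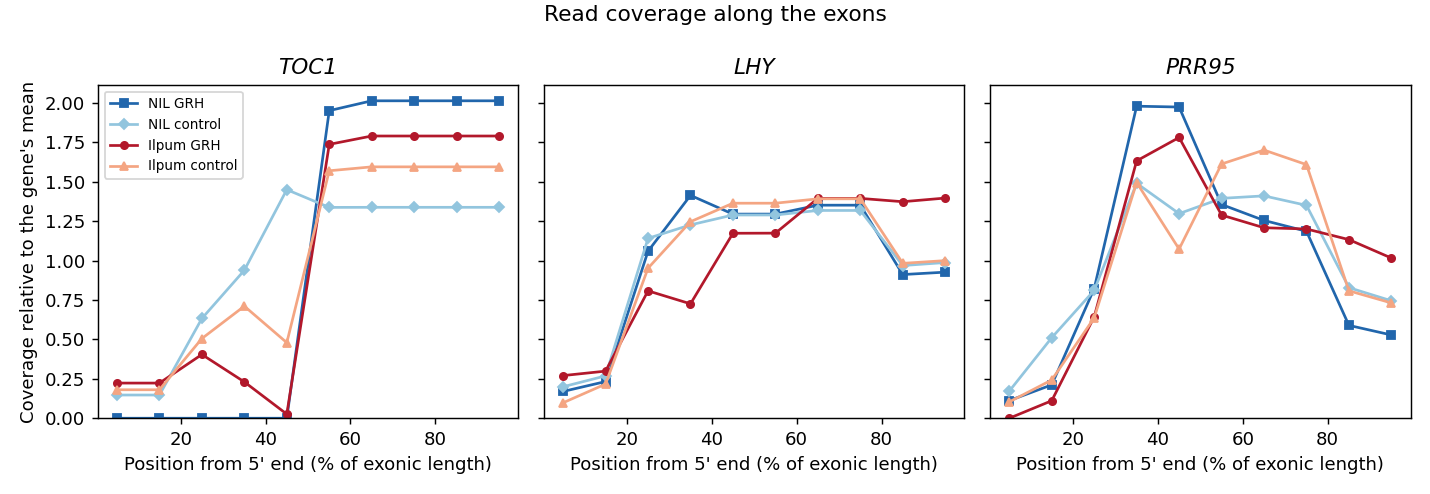
Read coverage in 10 equal bins of the exonic length from the 5' end, relative to the mean of each gene, for TOC1, LHY and PRR95 in the 4 libraries (coverage is given per exon in the files). TOC1 in NIL GRH has no coverage over the first 5 bins, and LHY in Ilpum GRH stays at 1.40 in the last bin where the other libraries are at 0.926 to 0.999.

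Beyond the 8 genes, 15 further clock genes were listed, of which 14 passed the filter and Os05g0317900 did not. They comprise PRR59, a second ELF3 gene, ELF4, the blue-light F-box genes ZTL1, ZTL2 and FKF1, the MYB-type genes Os04g0583900, Os02g0685200 and Os06g0728700, and 6 genes found through clock words in their descriptions. Under GRH in the NIL, 0 of the 14 were called in either direction and the median log2 difference was -0.07, while in Ilpum 0 were called higher and 5 lower, with a median of -0.73. Over all genes, 28.6% were called lower in Ilpum and 20.9% in the NIL, so 5 of 14 lies near the background. Between the infested lines 6 were called higher in the NIL and 0 lower, with a median of 0.81, beside 25.0% and 23.7% of all genes. Between the uninfested lines 2 were higher and 1 lower, with a median of 0.14, beside 14.1% and 14.0% of all genes. By sign alone, 9 of the 14 lay higher and 5 lower in the NIL in each state, and 12 of the 14 lay on the same side in both. Of the 8 central genes 3 lay higher and 5 lower with GRH, and 2 higher and 6 lower without insects.

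Os04g0583900, annotated as similar to LHY protein, had 94.9 FPKM in NIL GRH against 94.4 in NIL control, and 19.0 FPKM in Ilpum GRH against 45.7 in Ilpum control. Like LUX, it was called lower under GRH in Ilpum (-1.23) and higher in the NIL than in Ilpum both with GRH (2.26) and without (1.03). Os02g0685200 was called between the infested lines only (1.39), at 51.5 FPKM in NIL GRH against 19.0 in Ilpum GRH, and Os06g0728700 between the uninfested lines only (1.52), at 88.9 FPKM in NIL control against 30.2 in Ilpum control.

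ZTL2, a relative of the F-box protein that marks TOC1 for breakdown in Arabidopsis, had 29.2 FPKM in NIL GRH against 30.2 in NIL control, and 9.30 FPKM in Ilpum GRH against 27.1 in Ilpum control. It was called lower under GRH in Ilpum (-1.45) and higher in the NIL between the infested lines (1.55). Of 4 genes annotated as similar to the clock coupling factor ZGT, 3 were named by these calls. Os05g0494600 had 30 reads in NIL GRH against 102 in NIL control, and 4 reads in Ilpum GRH against 40 in Ilpum control. In FPKM it was at 21.6 in NIL GRH against 17.4 in NIL control, and at 3.74 in Ilpum GRH against 15.9 in Ilpum control. Its log2 difference was -1.83 under GRH in Ilpum and 2.25 between the infested lines, NIL against Ilpum.

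Os01g0802600, also ZGT-like, had 24.5 FPKM in NIL GRH against 14.1 in NIL control, and 8.14 FPKM in Ilpum GRH against 33.0 in Ilpum control. It was called lower under GRH in Ilpum (-1.89), lower in the NIL without insects (-1.17) and higher in the NIL with GRH (1.48), the only gene of the list whose line difference was called in opposite directions. Os03g0427000 was listed at 0 in Ilpum GRH, with 26 reads in Ilpum control and 16 in NIL GRH. Against the limit of 3 reads that a count of 0 allows in a library, it was at least 3.66-fold lower in Ilpum GRH than in Ilpum control. In NIL GRH it was at least 4.08-fold higher than in Ilpum GRH. Such bounds take the reads of the other library as exact, and with their counting error the limits on the log2 read ratio were -1.47 under GRH in Ilpum and 1.56 between the infested lines. PRR59, the closest remaining relative of PRR95, was not called, with 38.1 FPKM in NIL GRH against 33.5 in NIL control and 62.8 FPKM in Ilpum GRH against 52.2 in Ilpum control.

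Heading-date genes act downstream of the clock. Of those listed, 9 passed the filter, and Ehd1 did not. Under GRH in the NIL 1 of the 9 was called higher and 2 lower, and in Ilpum 1 higher and 3 lower, beside 14.7% and 20.9% of all genes in the NIL and 20.4% and 28.6% in Ilpum. The genes called higher were Hd3a in the NIL and Ghd7 in Ilpum. Each passed the filter only through the 1 library in which it had reads, so its calls were set by the filter. Between the lines, NIL against Ilpum, 4 were higher and 2 lower with GRH, beside 25.0% and 23.7% of all genes, and 1 was higher and 3 lower without insects, beside 14.1% and 14.0%. The median differences were -0.17 under GRH in the NIL, -0.98 in Ilpum, 0.39 between the infested lines and 0 between the uninfested lines. The uninfested median of 0 is the value of Hd3a and Ghd7, which were listed at 0 in both controls. With genes listed at 0 set to their bounds, the Ilpum median was -0.76 and the infested line median 0.34.

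Hd1, the rice counterpart of CONSTANS and a target of GI, had 24.7 FPKM in NIL GRH against 26.7 in NIL control, and 6.70 FPKM in Ilpum GRH against 14.2 in Ilpum control. It was called higher in the NIL between the infested lines (1.74), on 47 reads in NIL GRH against 10 in Ilpum GRH. COL4, a CONSTANS-like repressor of flowering, had 78.6 FPKM in NIL GRH against 96.5 in NIL control, and 109 FPKM in Ilpum GRH against 217 in Ilpum control, and was called lower in the NIL without insects (-1.16). Hd16, a casein kinase I, was called lower under GRH in Ilpum (-1.08), with 11.5 FPKM in Ilpum GRH against 25.3 in Ilpum control, and lower in the NIL without insects (-1.20), with 10.5 FPKM in NIL control.

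MADS50, a promoter of flowering related to SOC1, had 4 reads in NIL GRH against 53 in NIL control, a log2 difference of -1.45. It was listed at 0 in Ilpum GRH with 50 reads in Ilpum control, at least 7.03-fold lower (limit of the log2 read ratio with counting error, -2.46), and was called lower in the NIL without insects (-1.14). Hd6, the alpha subunit of casein kinase II, was at 2.78 FPKM in NIL GRH against 8.24 in NIL control (-1.29). It was listed at 0 in Ilpum GRH against 12 reads in Ilpum control, at least 1.69-fold lower (limit with counting error, -0.23), and was called higher in the NIL without insects (1.07). Between the infested lines, the calls of MADS50 and Hd6 rest on 4 and 5 reads in NIL GRH against that 0, and with counting error the log2 read ratio could be as low as -0.99 for MADS50 and -0.51 for Hd6, so no difference was detectable at this depth.

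The remaining calls rest on 8 reads or fewer. Hd3a, a florigen, had 8 reads in NIL GRH and was listed at 0 in the other libraries, at least 11.5-fold higher under GRH in the NIL and at least 2.04-fold higher than in Ilpum GRH. With the counting error of the 8 reads, the lower limits of the log2 read ratio were 2.88 and 0.38. Ghd7, a long-day repressor of heading, had 7 reads in Ilpum GRH and was listed at 0 in the others, at least 5.53-fold higher than in Ilpum control. NIL GRH was at least 3.05-fold lower than Ilpum GRH. With the counting error of the 7 reads, the limits of the log2 read ratio were 1.77 under GRH in Ilpum and -0.91 between the infested lines. DTH8, another repressor, was called lower between the infested lines on 2 reads in NIL GRH against 6 in Ilpum GRH, with a log2 read ratio of -1.97 (-5.31 to 0.51).

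Among 9 photoreceptor and light-signalling genes, all of which passed the filter, 0 were called higher and 4 lower under GRH in the NIL, where 14.7% of all genes were higher and 20.9% lower. In Ilpum 0 were higher and 1 lower, where 20.4% of all genes were higher and 28.6% lower. Between the lines 0 were higher and 3 lower with GRH, beside 25.0% and 23.7% of all genes, and 1 was higher and 0 lower without insects, beside 14.1% and 14.0%. The median differences were -0.63 under GRH in the NIL, 0.02 in Ilpum, -0.71 between the infested lines and -0.04 between the uninfested lines. PIL13, a PIF-like bHLH factor, was called lower under GRH in both lines, with 11.4 FPKM in NIL GRH against 51.4 in NIL control (-2.08) and 20.3 FPKM in Ilpum GRH against 73.5 in Ilpum control (-1.81). These GRH comparisons have no library in common.

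The blue-light receptor CRY2 had 12.2 FPKM in NIL GRH against 28.8 in NIL control (-1.18), while both Ilpum libraries were near 30 FPKM, with 30.3 in Ilpum GRH and 29.6 in Ilpum control, and it was called lower between the infested lines (-1.25). CRY1b was called lower under GRH in the NIL (-1.04), as was COP1, the ubiquitin ligase of light signalling (-1.31). COP1 was called higher in the NIL without insects (1.10), at 45.1 FPKM in NIL control against 20.5 in Ilpum control. CRY1a and the red-light receptor PHYC were called lower in the NIL between the infested lines only, at -1.19 and -1.04.

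Genes with the pattern most like that of LHY, TOC1 and GI were taken among the 4769 genes averaging 100 reads or more, by the distance between centred log2(FPKM + 1) values over the 4 libraries, which describes likeness over 4 points only. Nearest to LHY were Os06g0199200, an Smr domain gene (distance 0.07), Os09g0297100, similar to a CROC-1-like protein (0.10), and Os09g0509300, similar to HRGP (0.10). The LHY pattern matched here is that of its FPKM sum, which the short 3' transcripts raise in Ilpum GRH. Nearest to TOC1 were Os12g0169400, with a cystathionine beta-synthase core domain (0.12), Os04g0683900 (0.22) and Os07g0196200 (0.24), while PRR95 ranked 23 at a distance of 0.50. Os12g0169400 had 8.76 FPKM in NIL GRH against 23.0 in NIL control, and 39.8 FPKM in Ilpum GRH against 55.2 in Ilpum control. Nearest to GI were Os03g0387800 (0.03), Os03g0191000 (0.06) and Os12g0620400, a methyl-CpG binding domain gene (0.06). No clock gene was among the 3 nearest to any of them.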

How the data were processed

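Leaf RNA of 4 groups was sequenced as paired ends, and the values of 1 library per group were used, although the paper describes duplicate samples. Per the file headers, the authors ran StringTie 1.3.4d on HISAT alignments to IRGSP-1.0 with RAP-DB representative transcripts, which gave the deposited FPKM and TPM, and the submitters' notes name Trimmomatic. The paper also names Trinity and edgeR. Coverage, as deposited, is the mean read depth over a transcript or exon. The estimated count of a transcript, as deposited, equals coverage times length over 101, rounded up (100% of transcripts with reads within 1 read), so an FPKM and its count are not independent. If both mates were counted, the intervals are too narrow.

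Gene values are sums over transcripts. Differences are of log2(FPKM + 1), for genes averaging 1 FPKM or more, called at 2-fold. Clopper-Pearson intervals of read ratios use the library totals as scale, and the interval of a difference between responses is normal on the log2 scale. TMM factors came from edgeR 4.0.16 in R 4.3.3, and the rest from Python 3.11.15 with pandas 2.3.3 and scipy 1.17.1. The steps were tested on simulated data. No column of another series was present (0 columns).

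The clock genes, the lists and the alternatives were chosen with earlier results of these data known. Genes named were the 8 clock genes, every listed gene past 2-fold in any comparison with a mean of at least 1 FPKM, and the 3 nearest genes to LHY, GI and TOC1. PRR59 was named in addition, after its values were seen. An identifier stands in place of a name where the files' description does not give that name. Promoter motifs were not analysed here. A listed heading-date gene is not reported here.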

Additional observations from a re-analysis of the deposited data

Results flagged for a closer look

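For LHY, LUX and GI, the differences had opposite signs in a pair of comparisons, each with 1 library per group, and the opposition was not tested. LHY was at -0.11 on the log2(FPKM + 1) scale under GRH in the NIL and at 0.62 in Ilpum, and its short transcripts carried the Ilpum value. LUX was at 0.027 under GRH in the NIL and at -1.38 in Ilpum, on 4 reads in Ilpum GRH. GI was at 0.23 between the infested lines, NIL against Ilpum, and at -0.086 between the uninfested lines.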

How the results depend on the processing

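The alternatives were pseudocounts of 0.1 and 0.01, a filter at a mean of 5 FPKM or above 0, quantile-normalized FPKM, TPM, read counts with TMM factors and 0.5 added, a 4-fold threshold and the most abundant transcript, and, chosen after seeing the data, CPM with 0.5 reads added. The filters and the 4-fold threshold leave a gene's own value as it is. Of 224 clock gene values under the 7 others, 204 moved by less than their counting interval and 20 moved by more. Of the 32 member differences, 27 kept their sign under every one of these 7 settings. The 5 others were LHY under GRH in Ilpum (-0.17 to 0.63), PRR73 under GRH in Ilpum (-0.32 to 0.14), GI under GRH in the NIL (-0.23 to 0.14), GI between the uninfested lines (-0.09 to 0.06) and LUX under GRH in the NIL (-0.11 to 0.07). The number of clock genes called lower under GRH in the NIL was 2 with pseudocounts of 0.1 and 0.01, with quantile normalization and with TMM counts, through PRR95. With TMM counts 1 was called lower between the uninfested lines, PRR95 being lost at -0.92. On the most abundant transcript PRR95 was also short of 2-fold there, at -0.98, while PRR73 passed it, at -1.08. At 4-fold, 0 were lower under GRH in the NIL, 0 in Ilpum, 0 were higher and 0 lower between the uninfested lines, and 1 was lower between the infested lines. LHY between the infested lines was at -0.26 for the most abundant transcript, -0.48 with TMM counts and -0.55 by CPM, all short of 2-fold. The TMM factors moved the median of all genes to -0.17 under GRH in the NIL and to -0.13 in Ilpum. No paired analysis was possible because each group has 1 library, and no library could be left out for the same reason. Depth limits TOC1 in NIL GRH (14 reads) and LUX in Ilpum GRH (4 reads).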
